A study of Rattus norvegicus with 32 samples.

Results

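Glutamate is the main excitatory transmitter of the brain, and 35 genes encoding its receptors and the proteins that sit with those receptors at the synapse were followed here in 4 rat brain regions after binge methamphetamine (METH). The set was defined by gene symbol, and all 35 members were found among the 28914 genes of the count tables. It holds 4 AMPA receptor subunits (Gria1 to Gria4), 7 NMDA receptor subunits (Grin1, Grin2a to Grin2d, Grin3a and Grin3b), 5 kainate receptor subunits (Grik1 to Grik5), the delta receptor gene Grid1, 6 metabotropic receptors (Grm2, Grm3, Grm4, Grm5, Grm7 and Grm8), 6 transmembrane AMPA receptor regulatory proteins or TARPs (Cacng2, Cacng3, Cacng4, Cacng5, Cacng7 and Cacng8), the kainate receptor partners Neto1 and Neto2, and 4 scaffold genes of the postsynaptic density (Dlg1 to Dlg4).

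Adult male Sprague-Dawley rats received 4 intraperitoneal injections of METH at 10 mg/kg with 2 h between injections, or saline on the same schedule, and the brains were dissected 24 h after the final dose. RNA-seq libraries from rRNA-depleted total RNA came from the dentate gyrus (DG) and Ammon's horn (CA) of the hippocampus, the subventricular zone (SVZ), which holds neural stem cells, and the nucleus accumbens (NAc) of the ventral striatum, with 4 METH and 4 saline (Sal) samples in each region and 32 in all. The NAc and SVZ were punched from slices and the DG and CA were scooped out by hand, so each sample is a piece of tissue with many cell types, in which fewer cells of a type and less RNA per cell cannot be told apart. The animals carried no transgene, and the time after METH was the same in all METH samples.

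AMPA receptors carry most of the fast excitatory current, and TARPs govern how many of them reach the synapse and how quickly they close. NMDA receptors need both glutamate and a depolarized membrane to open, contain the obligatory subunit Grin1, and let in the calcium that starts many forms of synaptic plasticity. Kainate receptors are built from low-affinity (Grik1 to Grik3) and high-affinity (Grik4 and Grik5) subunits and are best known from the hippocampus, while metabotropic receptors signal through G proteins, and their group III members (Grm4, Grm7 and Grm8) mostly damp transmitter release from the presynaptic side. The Dlg scaffolds hold receptors in place under the postsynaptic membrane.

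Total gene counts per sample ran from 11094002 to 21869773. Levels are given as CPM, the reads of a gene scaled to a common library size. By total counts 1 read stood for 0.0457 to 0.0901 CPM, before the upper-quartile normalization used for the levels below. Marker genes of other cell types showed that several samples stood apart from their group. The summed level of striatal medium spiny neuron markers was 151 CPM in NAc METH 3 against 1326 to 8068 CPM in the other NAc samples, and 1631 CPM in DG Sal 3 against 159 to 364 CPM in the other DG samples. Thalamic markers summed to 1574, 1409 and 970.4 CPM in SVZ Sal 1, METH 2 and METH 4, against at most 403 CPM in the other SVZ samples, and medium spiny markers were lowest in those same libraries within the SVZ, at 274, 202 and 583 CPM. Granule neuron markers summed to 40.3 and 43.1 CPM in DG Sal 2 and 3, within the 32 to 63.1 CPM of the NAc. They summed to 50.8 to 417 CPM in saline CA and to 62.6 to 189 CPM in METH SVZ. The DG samples were thus not set apart from the CA or the SVZ by them. Of the markers looked for, Tdo2, Fibcd1, Spink8, Npy, Otx2 and Cldn5 were at or near 0 in all samples. In the count tables, DG Sal 1 and 2 carried library numbers that belong to METH samples in the NAc and CA, DG METH 1 and 2 carried numbers of saline samples there, and SVZ METH 1 and 2 shared a number, as did SVZ METH 3 and 4. Each brain was divided, with the NAc and SVZ taken from the front part and the DG and CA from the back, and library numbers recur across regions (14, 15, 22 and 23 in saline NAc and CA, with 22 and 23 also in saline DG), so tissue pieces of different regions are not all from separate animals, while the fits across regions treated them as separate. Groups follow the sample labels throughout, and p-values measure the spread between these samples. Exons of Grin1, Grin2b and Grin3b overlap another gene on the opposite strand, and counting did not use strand, so reads of the overlapping stretch cannot be told apart.

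The levels of the 35 genes, set on 1 scale by dividing CPM by the summed exon length in kilobases (CPM per kb), covered a wide range in every group. Dlg4, the core scaffold of the excitatory postsynaptic density, was highest in each of the 8 groups, at 257 ± 63.8 CPM per kb in saline NAc, 237 ± 56.5 in saline DG, 265 ± 19.2 in saline CA and 212 ± 62.4 in saline SVZ (mean ± SD, n = 4 each). In saline CA it was followed by the AMPA subunits Gria1 at 163 ± 52.7 and Gria2 at 136 ± 18.3 CPM per kb, then by Grin2b at 118 ± 8.42, Cacng8 at 117 ± 39.2 and Grin1 at 112 ± 8.12, and these 5 genes lay within their spreads of their neighbours in that order. In saline NAc the genes after Dlg4 were Dlg2 at 111 ± 23.1 and Gria2 at 110.9 ± 19.5, which did not differ beyond their spread, with Grm5 at 91.8 ± 30.2 CPM per kb close to Grin1 at 91.9 ± 12.8. The lowest members were the presynaptic receptor Grm2, at 1.78 ± 1.56 CPM per kb in saline NAc and 1.52 ± 0.633 in saline SVZ, and the NMDA subunit Grin3b, at 2.78 ± 1.41 in saline DG and 2.25 ± 1.05 in saline CA.

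**Figure D1:**
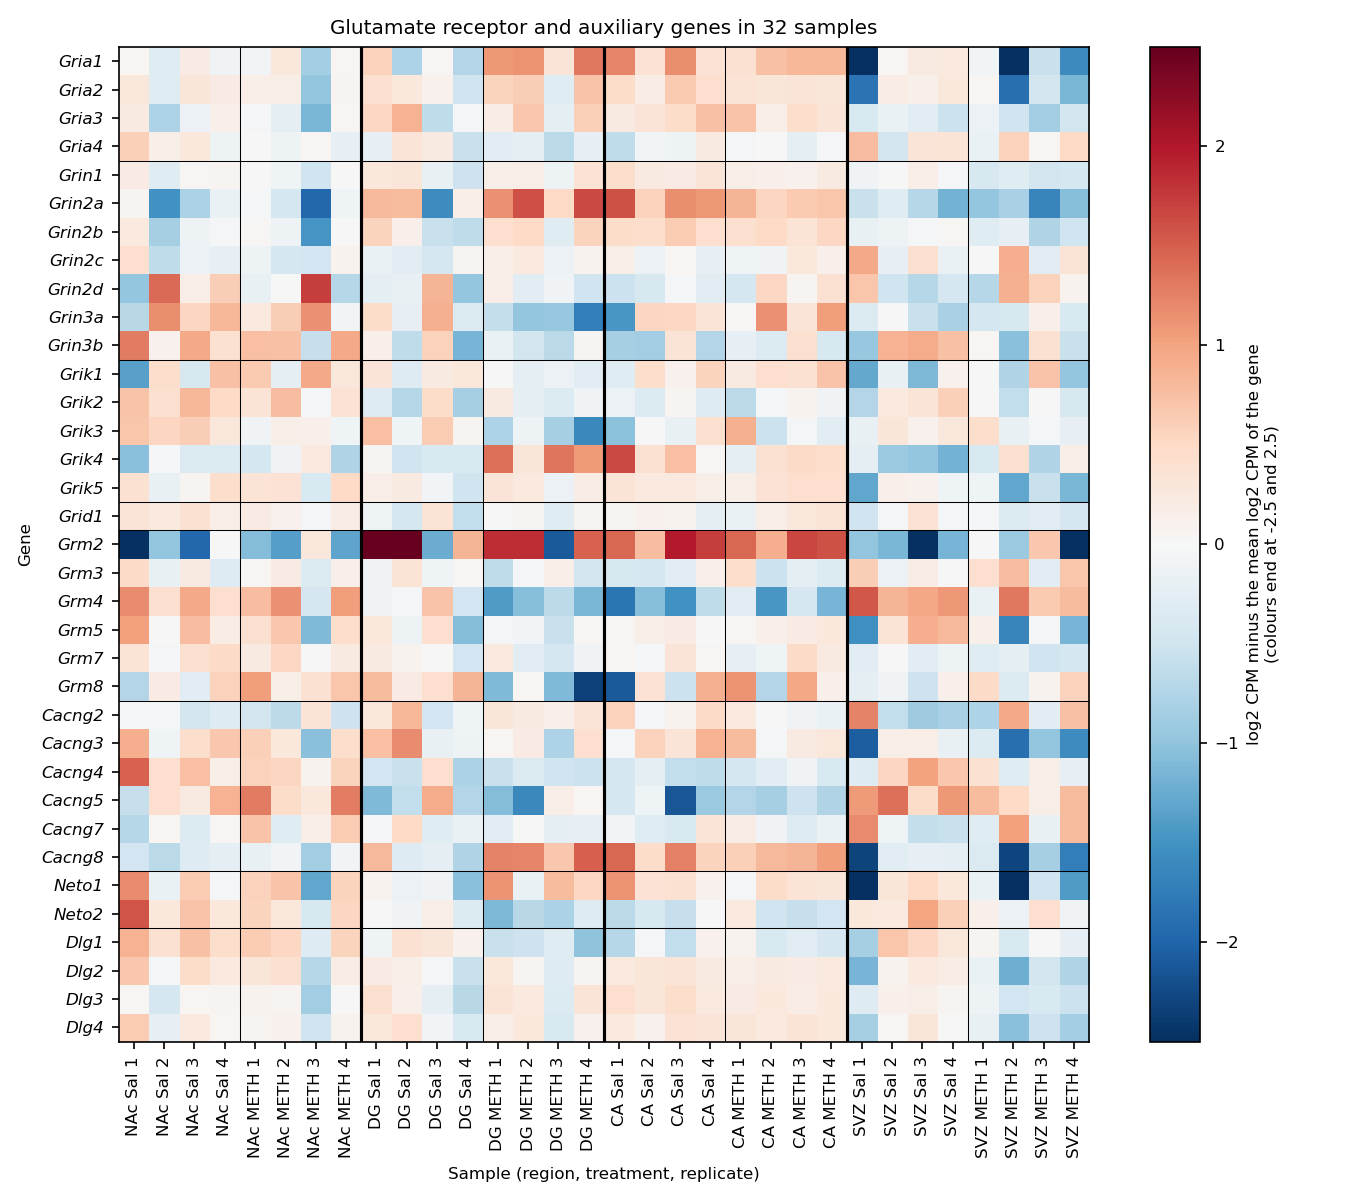
Level of the 35 genes (rows, grouped by role) in the 32 samples (columns, grouped by region and treatment), as log2 CPM minus the gene's mean log2 CPM over all samples. SVZ Sal 1, METH 2 and METH 4 differ from the other SVZ samples, with Gria1 at 31.6, 28 and 89.6 CPM, and NAc METH 3 differs from the other NAc samples.

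The first comparison asked which receptor genes differ between regions in saline animals, with all 16 saline samples in 1 fit (edgeR quasi-likelihood test, FDR under 0.01 and at least 2-fold). Grm4, a group III metabotropic receptor known as a presynaptic brake on transmitter release, was the member called: it was lower in CA than in SVZ. Its gene lies at chr20:6745682-6791519 on the minus strand of rn6. Levels of Grm4 in saline CA were 8.81, 15, 10.9 and 20.3 CPM, and in saline SVZ 91.7, 56.8, 60.8 and 66.6 CPM. The saline NAc samples had 71.3, 41.1, 60.2 and 41.9 CPM, and the saline DG samples 29.4, 30.7, 51.6 and 22.4 CPM. CA overlapped with none of the other 3 regions, DG lay below SVZ and overlapped with NAc, and NAc and SVZ overlapped. The CA to SVZ difference was -2.37 ± 0.302 on the log2 scale (± SE, edgeR FDR = 0.00633), and 1 of 35 members was called where 0.812% of all tested genes were. Against the NAc, CA differed by -1.995 ± 0.299 (edgeR FDR = 0.0285). All SVZ libraries, saline and METH, had names of a separate sequencing run, as inferred here, which held no library of another region. In every contrast with the SVZ, region and inferred run therefore cannot be told apart.

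The call on Grm4 depended on single libraries. When each of the 16 saline samples was left out in turn, CA to SVZ stayed called in 11 of 16 fits with edgeR FDR from 0.000523 to 0.0274, and it was lost without NAc Sal 3 (FDR 0.0123), CA Sal 1 (0.0274), CA Sal 2 (0.0154), CA Sal 3 (0.0215) or SVZ Sal 3 (0.023), although the log2 difference stayed between -2.62 and -2.21. Without DG Sal 3 and SVZ Sal 1, the saline samples that stood apart by marker sums, Grm4 was called in CA against SVZ (edgeR FDR = 0.000412) and in CA against NAc (0.000456). With the replicate number as a block over the 16 saline samples the CA to SVZ call was also lost (log2 difference -2.35, edgeR FDR = 0.0118). Library numbers do not link CA with SVZ samples, and deviations of their same-numbered saline samples correlated at 0.06, -0.03, 0.04 and -0.16. That block thus pairs no known animals of CA and SVZ. In a fit of the CA and NAc saline samples alone, whose library numbers match in pairs, Grm4 was called (edgeR FDR = 0.00572), and with the pairs as a replicate block it was not (log2 difference -2.02, FDR = 0.0262). The same contrast in the METH samples, which the saline fit did not use, gave -1.54 ± 0.363 for CA against SVZ (edgeR FDR = 0.00889) and -1.54 ± 0.364 for CA against NAc (FDR = 0.0198). Grm4 levels in METH samples were 25.9, 11.4, 23.3 and 14 CPM in CA, 28, 78.5, 49.2 and 53.9 CPM in SVZ, and 53.8, 68.8, 23.3 and 64.4 CPM in NAc, where the lowest NAc value was NAc METH 3, inside the CA range. Leaving out NAc METH 3, SVZ METH 2 and SVZ METH 4 gave -1.12 for CA against SVZ (FDR = 0.033) and -1.78 for CA against NAc (FDR = 0.00203).

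In the other 5 saline contrasts no member was called by edgeR. The share of all genes called was 0% for CA against NAc, DG against CA, DG against NAc and NAc against SVZ, and 0.0193% for DG against SVZ, and 13, 4, 7, 2 and 8 members in CA against NAc, DG against CA, DG against NAc, NAc against SVZ and DG against SVZ had an unadjusted p under 0.05, where 24.1%, 8.93%, 11.5%, 12.6% and 17.6% of all genes did. DESeq2 called 6 members in CA against NAc, 1 in DG against SVZ and 0 in the remaining 3. The shares above are of edgeR calls, and the shares of all genes called by DESeq2 are not given here, so these counts cannot be set against them. The next values are of members chosen after their results were seen.

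At an FDR under 0.05, 8 members separated CA from SVZ in saline (4 higher and 4 lower) where 13.2% of all genes did, and 5 separated CA from NAc (2 higher and 3 lower) where 5.1% of all genes did. Higher in CA against both were Grin2a, the NMDA subunit that gives mature synapses fast-closing channels, and the kainate subunit Grik4. Grin2a had 561, 275, 413 and 393 CPM in saline CA, 193, 64.8, 107 and 166 CPM in saline NAc, and 126, 149.8, 113 and 81.5 CPM in saline SVZ, with every CA sample above every NAc and SVZ sample. The log2 difference was 1.603 ± 0.429 against NAc (edgeR FDR = 0.0458) and 1.76 ± 0.431 against SVZ (FDR = 0.0206). Grik4 differed by 1.21 ± 0.319 against NAc (FDR = 0.0443) and 1.59 ± 0.321 against SVZ (FDR = 0.0108).

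Also higher in CA than in SVZ were Cacng8, the TARP known for its abundance in the hippocampus, by 1.48 ± 0.413 on the log2 scale (edgeR FDR = 0.0322), and Grm2, a group II presynaptic receptor, by 2.86 ± 0.776 (FDR = 0.0289). Cacng8 levels were 202, 102, 179.5 and 109.7 CPM in saline CA and 15.1, 62.1, 64.6 and 64.4 CPM in saline SVZ, so the groups did not overlap, and the lowest value was SVZ Sal 1. Grm2 had 48.5, 30.3, 71 and 59 CPM in saline CA and 9.04, 8.09, 2.66 and 8.03 CPM in saline SVZ. In saline DG it varied from 7.57 CPM in DG Sal 3 to 116 CPM in DG Sal 2, a wider range than in any other saline region.

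Lower in CA were 3 other genes besides Grm4. Neto2, a kainate receptor partner, differed by -1.22 ± 0.265 on the log2 scale against NAc (edgeR FDR = 0.0302) and -0.99 ± 0.263 against SVZ (FDR = 0.0271), and the TARP Cacng4 differed by -1.27 ± 0.325 against NAc (FDR = 0.0409) and -1.05 ± 0.323 against SVZ (FDR = 0.0458). Cacng4 levels were 75.4, 85.8, 66.5 and 65.6 CPM in saline CA, 280.1, 135, 170.4 and 112 CPM in saline NAc, and 80.6, 147, 202 and 161 CPM in saline SVZ. CA lay below NAc throughout, and SVZ Sal 1 fell inside the CA range. Cacng5, a type II TARP, was lower in CA than in SVZ by -1.80 ± 0.484 (FDR = 0.0282), with 13.4, 16.5, 4.07 and 9.33 CPM against 37.2, 46.4, 24.6 and 38 CPM.

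**Figure D2:**
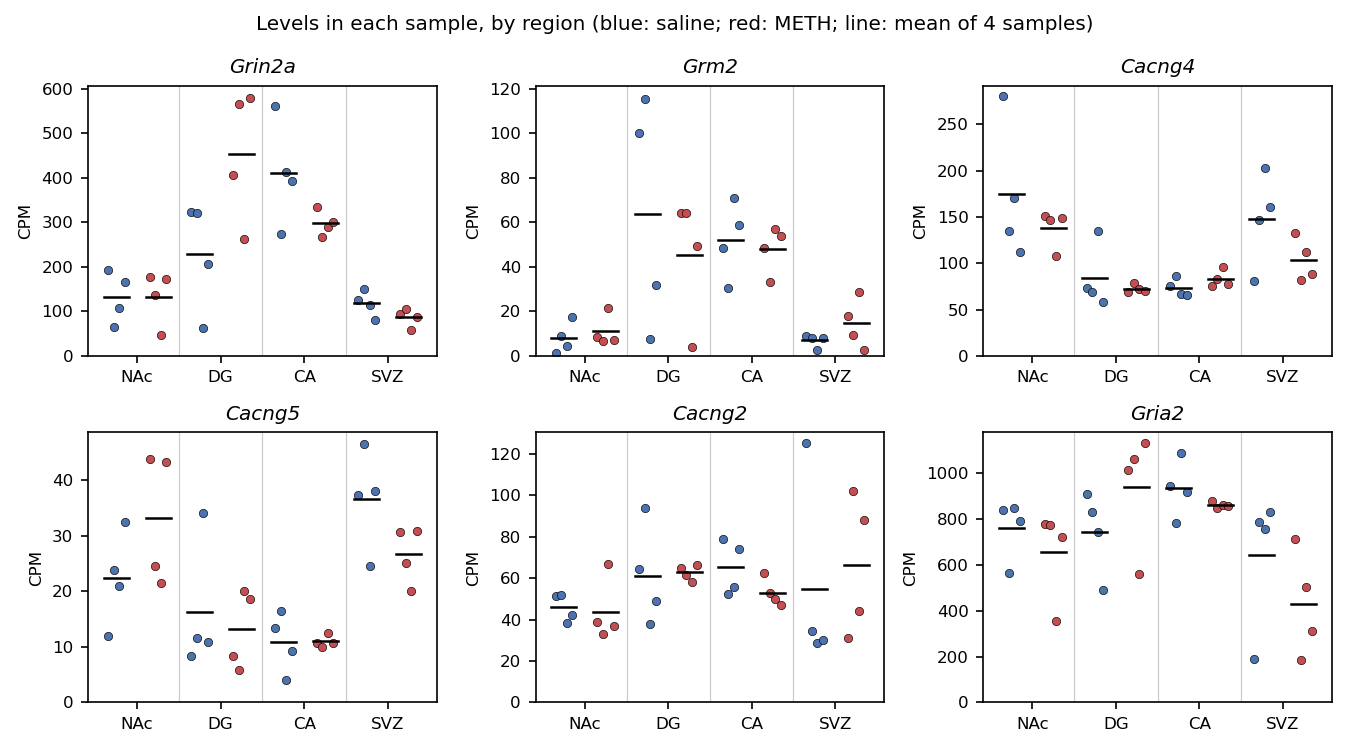
CPM of 6 members in each sample, by region (saline in blue, METH in red, line at the mean of 4 samples). Grin2a has higher means in CA and DG than in NAc and SVZ, Cacng5 has its lowest means in CA, and in the SVZ the libraries Sal 1, METH 2 and METH 4 have the highest Cacng2 (125.5, 102 and 88.1 CPM) and low Gria2.

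The METH samples gave a repeat of these contrasts in libraries the saline fit had not used. For contrasts with the SVZ the inferred sequencing run differed between the regions in this repeat too. Of the 13 members with an unadjusted p under 0.05 in saline CA against NAc, 12 had the same direction in METH samples and 10 also had p under 0.05, where 97.9% and 61% of all genes chosen the same way did. For CA against SVZ (31.6% of all genes at p under 0.05 in saline) the counts were 12 and 9 of 13, beside 96.9% and 67.9% of genes. They were 7 and 6 of 7 for DG against NAc (83.7% and 49.8%), 8 and 7 of 8 for DG against SVZ (91.1% and 61%), and 2 and 2 of 2 for NAc against SVZ (96.9% and 62.7%). DG against CA did not repeat, for members or for all genes, and most of both had the opposite direction in METH samples. Of 4 members in saline (Grin2b, Grik4, Grm4 and Cacng8), 1 kept its direction in METH samples and 0 had p under 0.05. Of all genes chosen the same way, 35.1% kept their direction and 1.75% also had p under 0.05. In saline the DG to CA difference was -1.11 ± 0.318 for Grik4, 1.31 ± 0.295 for Grm4 and -0.98 ± 0.408 for Cacng8 on the log2 scale, none of them passing the edgeR test (lowest FDR = 0.482).

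In METH samples, edgeR called 3 members in CA against SVZ (3.91% of all genes), 3 in DG against NAc (3.1%) and 3 in DG against SVZ (3.94%), and 0 in CA against NAc (1.27%), DG against CA (0%) and NAc against SVZ (0.0384%). At an unadjusted p under 0.05 there were 12 members in CA against NAc (23.3% of all genes), 4 in DG against CA (10.9%) and 15 in NAc against SVZ (26.1%), and 23, 19 and 26 in the 3 contrasts with calls (39.8%, 26.6% and 37% of all genes). Grin2a was called in all 3 contrasts with calls, at 1.73 for CA against SVZ, 1.75 for DG against NAc and 2.36 for DG against SVZ on the log2 scale (edgeR FDR = 0.00365, 0.00373 and 0.000632). Cacng8 was called in CA against SVZ (1.89, FDR = 0.00245) and DG against SVZ (2.27, FDR = 0.000731), and Grm4 was called in DG against NAc (-1.80, FDR = 0.00553) and DG against SVZ (-1.80, FDR = 0.00406) besides CA against SVZ. Grin3a was called in DG against NAc (-1.58, FDR = 0.00477). Without NAc METH 3, SVZ METH 2 and SVZ METH 4, the members called were 2 in CA against NAc, 2 in CA against SVZ, 8 in DG against NAc, 4 in DG against SVZ and 0 in the other contrasts, with Grin2a called again in the same 3 contrasts and Grm4 no longer called in CA against SVZ or in DG against SVZ (FDR = 0.012). The percentages above are of the fit with all METH samples. The share of all genes called in this smaller fit is not given here, so its counts cannot be set against other genes.

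The second comparison asked how these genes differed after METH within each region, with 4 METH against 4 saline samples. No member passed FDR under 0.01 with a 1.5-fold change in any region by edgeR, and neither did any other gene (0% of all tested genes in each region). At an unadjusted p under 0.05 there were 1 member in the NAc (2.9% of members, 3.39% of all genes), 10 in the DG (28.6%, against 12.8% of all genes), 2 in the CA (5.7%, against 7.16%) and 4 in the SVZ (11.4%, against 2.58%). DESeq2 called 3 members in the DG, Grik4 (adjusted p = 0.00011), Dlg1 (0.00765) and Grm4 (0.00916), among 175 genes, and 0 in the NAc, CA and SVZ. The median log2 fold change of the 35 members was -0.10 in the NAc, -0.08 in the DG, 0.03 in the CA and -0.38 in the SVZ, where the medians of all genes were 0.029, -0.011, 0.005 and 0.016. The members in the following paragraphs are named for an unadjusted p under 0.05, and their values are given as measured, without a call.

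**Figure D3:**
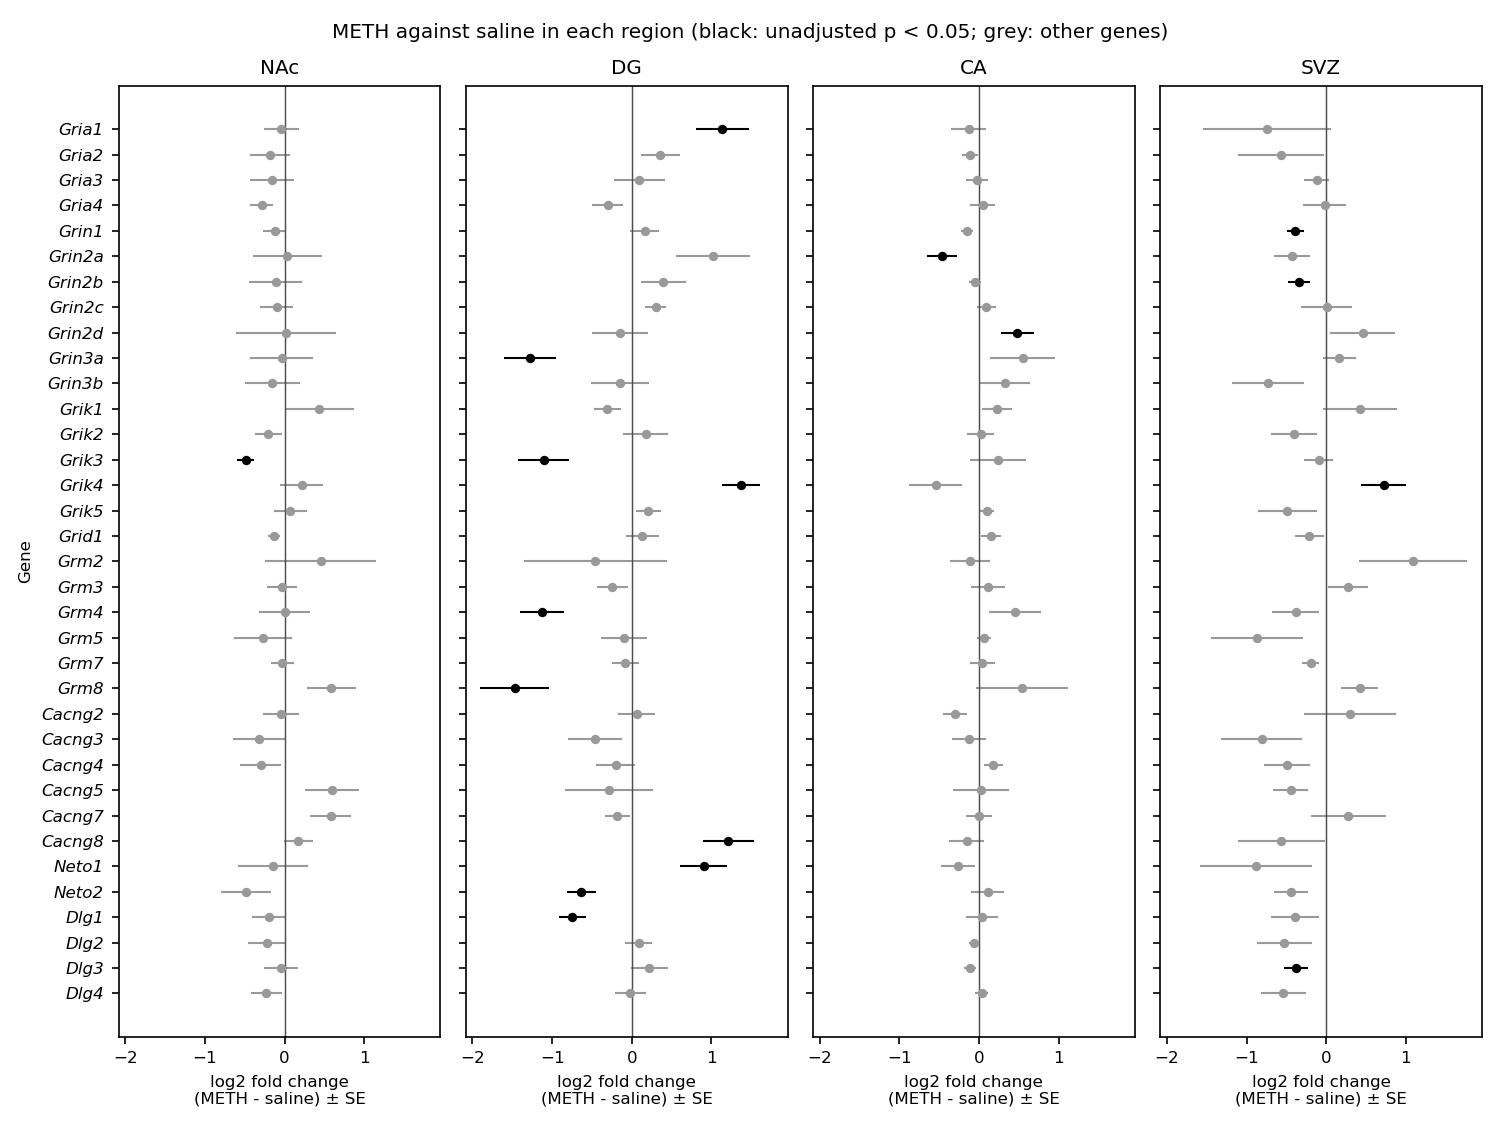
log2 fold change of METH against saline (x axis, ± SE) for each of the 35 genes in the 4 regions, with genes at an unadjusted p under 0.05 in black. The DG holds 10 black points, 4 to the right of 0 and 6 to the left, and the SVZ has 25 of 35 points to the left of 0.

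The 10 DG members came from 7 of the 8 roles. Those higher after METH were the AMPA subunit Gria1, the TARP Cacng8, the kainate subunit Grik4 and its partner Neto1, and those lower were the NMDA subunit Grin3a, the kainate subunit Grik3, the metabotropic receptors Grm4 and Grm8, Neto2 and the scaffold Dlg1. The METH and saline samples did not overlap in 6 of the 35 members, all among these 10, 1 higher and 5 lower, where 6.8% of all genes in the DG did not overlap. Medians by role were 0.23 for AMPA subunits (3 of 4 above 0), 0.16 for NMDA subunits (4 of 7), 0.17 for kainate subunits (3 of 5), -0.35 for metabotropic receptors (0 of 6), -0.19 for TARPs (2 of 6) and 0.03 for the scaffolds (2 of 4).

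Grik4 had the smallest p of the members. It encodes a high-affinity kainate subunit known from CA3 pyramidal cells and their mossy fibre synapses, and lies at chr8:46806147-47094352 on the minus strand of rn6. DG saline samples had 44.6, 30.1, 32.4 and 32.5 CPM and DG METH samples 109.6, 52.2, 107 and 88.6 CPM. The lowest METH sample stood above the highest saline sample. The log2 fold change was 1.37 ± 0.24 (unadjusted p = 0.000362, edgeR FDR = 0.157). Over the 20 alternative settings it stayed between 1.26 and 1.68 with an unadjusted p under 0.05 in each.

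Its auxiliary partner Neto1, which slows kainate receptor gating and also binds NMDA receptors, had 145, 123, 128 and 66.3 CPM in DG saline and 297, 122, 236 and 196 CPM in DG METH samples. DG METH 2 fell inside the saline range, and the log2 fold change was 0.90 ± 0.299 (edgeR FDR = 0.28). Neto2, the other member of the pair, went the other way, with 37.9, 35.9, 43 and 29.9 CPM in saline and 17.5, 23.6, 21.9 and 30.4 CPM after METH (-0.64 ± 0.182, FDR = 0.232). The highest DG saline value of Neto2 was in DG Sal 3, the sample with high medium spiny markers. Grik3, a low-affinity kainate subunit, had 91.1, 50.3, 83.7 and 56.2 CPM in saline and 31.7, 49.7, 30.4 and 17.6 CPM after METH. Its groups did not overlap, by a margin of less than 1 CPM, at a log2 fold change of -1.11 ± 0.319 (FDR = 0.235).

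Gria1, the AMPA subunit inserted at hippocampal synapses during potentiation, lies at chr10:42614713-42760200 on the plus strand. Its levels were 405, 159.8, 276 and 162 CPM in DG saline and 572, 590.4, 339 and 678 CPM in DG METH samples. DG METH 3 was below DG Sal 1, so the groups overlapped, and the log2 fold change was 1.14 ± 0.334 (edgeR FDR = 0.244). Cacng8, at chr1:64330106-64350338 on the minus strand, had 131, 59.7, 63 and 44.3 CPM in saline and 176, 174, 119.5 and 212 CPM after METH (1.21 ± 0.322, FDR = 0.214). As for Gria1, the overlap came from DG Sal 1 and DG METH 3. Gria2, Gria3 and Gria4 had log2 fold changes of 0.36, 0.10 and -0.30 with p over 0.05.

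Grin3a, the NMDA subunit that lowers calcium entry and is most abundant in young brain, had 28.9, 18.4, 39 and 16.7 CPM in DG saline and 13.9, 10.8, 10.9 and 6.39 CPM in DG METH samples. All METH samples were below all saline samples (-1.28 ± 0.324, edgeR FDR = 0.201), and the highest saline value was DG Sal 3. Grin2a, with an unadjusted p of 0.0594, had 323, 321, 62.5 and 207 CPM in saline and 407, 566, 262 and 579.5 CPM after METH. DG Sal 3, the sample with high medium spiny markers, was its lowest value, and without that sample the log2 fold change was 0.71 with an unadjusted p of 0.0405 in place of 1.02 ± 0.468.

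Both group III receptors with p under 0.05 were lower without overlap. Grm4 had 29.4, 30.7, 51.6 and 22.4 CPM in saline and 11.7, 15, 20 and 14.1 CPM after METH (-1.12 ± 0.277, edgeR FDR = 0.194) and its METH values lay within the range of saline CA. Its highest DG saline value, 51.6 CPM, was DG Sal 3, the sample with high medium spiny markers. Grm8 had 29.8, 19.9, 23 and 31 CPM in saline and 8.06, 17.8, 8 and 3.42 CPM after METH (-1.47 ± 0.433, FDR = 0.245). Grm7, the third group III gene, had a log2 fold change of -0.08 ± 0.172. Dlg1, a scaffold that binds AMPA receptors on their way to the synapse (chr11:72163749-72378895, minus strand), had 126.5, 178, 169 and 148 CPM in saline and 92.7, 95.4, 111 and 68 CPM after METH. Its groups did not overlap (-0.75 ± 0.173, FDR = 0.178), and Dlg2, Dlg3 and Dlg4 had log2 fold changes of 0.09, 0.22 and -0.02.

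**Figure D4:**
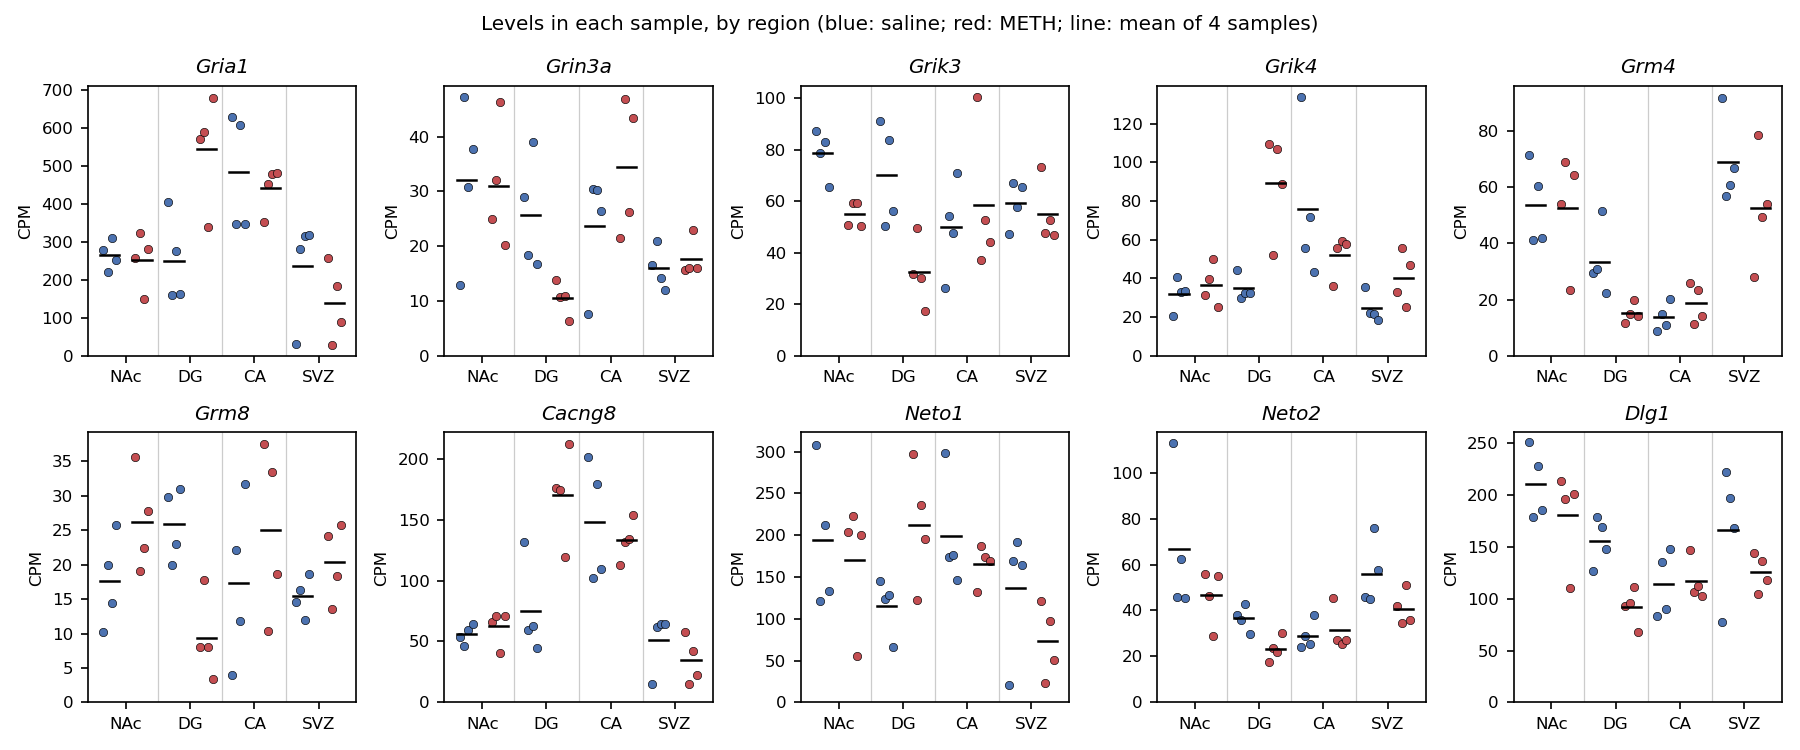
CPM of the 10 members with an unadjusted p under 0.05 in the DG, in each sample of the 4 regions (saline in blue, METH in red, line at the mean of 4 samples). Grik4 is higher in every DG METH sample than in any DG saline sample, while Grin3a, Grik3, Grm4, Grm8 and Dlg1 are lower in every DG METH sample.

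Promoters of the members were read from RefSeq (GRCr8, 250 bases before to 50 bases after the annotated start), where 22 of 35 members matched. Shown are the genes with the smallest p among members that were higher or lower in the DG with a promoter in the table (Grik4 and Dlg1), and in the SVZ (Grin1). Capitals mark the motif letters found on either strand: GCGGGGGCG, the site letters of EGR immediate-early factors, and GGGCGG, a GC box, which share bases in Grin1, and GGGCGG and CACGTG, an E-box, in Dlg1. The coordinates are chr8:52102014-52102313 (minus strand, 44% GC) for Grik4, chr11:82607748-82608047 (minus strand, 69% GC) for Dlg1 and chr3:28528705-28529004 (minus strand, 59.7% GC) for Grin1.
Grik4: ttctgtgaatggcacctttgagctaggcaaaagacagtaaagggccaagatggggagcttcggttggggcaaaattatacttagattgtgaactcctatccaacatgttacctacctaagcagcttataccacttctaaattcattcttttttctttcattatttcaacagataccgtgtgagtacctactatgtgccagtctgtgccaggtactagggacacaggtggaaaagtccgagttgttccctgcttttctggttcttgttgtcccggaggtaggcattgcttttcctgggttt
Dlg1: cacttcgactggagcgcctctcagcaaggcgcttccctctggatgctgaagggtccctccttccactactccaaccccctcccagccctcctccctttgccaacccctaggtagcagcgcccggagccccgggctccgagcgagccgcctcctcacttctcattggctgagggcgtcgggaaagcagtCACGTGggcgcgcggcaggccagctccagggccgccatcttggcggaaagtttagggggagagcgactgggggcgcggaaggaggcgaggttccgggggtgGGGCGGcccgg
Grin1: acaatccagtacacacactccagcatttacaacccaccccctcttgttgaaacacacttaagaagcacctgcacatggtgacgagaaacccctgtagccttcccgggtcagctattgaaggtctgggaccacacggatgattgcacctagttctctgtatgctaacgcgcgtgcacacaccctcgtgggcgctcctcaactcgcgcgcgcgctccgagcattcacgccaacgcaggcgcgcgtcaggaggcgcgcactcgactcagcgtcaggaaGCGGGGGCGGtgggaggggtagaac

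GGGCGG was present in 8 of the 22 member promoters (Grin1, Grik3, Grik5, Grm7, Cacng3, Neto1, Neto2 and Dlg1), where 33.1% of all 33469 promoters held it, so genes with the letters included members higher and lower in the DG. GCGGGGGCG was found in Grin1 alone, where 2.73% of all promoters held it, and CACGTG in Dlg1 alone (6.42% of all promoters). GCGTGGGCG and the cyclic AMP response element TGACGTCA were in 0 of 22 (0.544% and 1.83% of all promoters). None of the 5 motifs was in the Grik4 window.

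Markers of cell types moved with treatment in the DG. CA pyramidal markers summed to 357, 399, 506 and 553 CPM in the 4 saline samples when ordered by level and to 593, 686, 1433 and 1505 CPM in the METH samples, with no overlap, and 2 of 5 tested markers were higher at an unadjusted p under 0.05 (median log2 fold change 0.92). This list did not single out the CA, as median sums were 656 CPM in saline CA, 627 CPM in METH CA and 657 CPM in METH NAc. The METH DG median, 1060 CPM, was above all of these. Granule neuron markers ranged from 40.3 to 213 CPM in saline and from 74.2 to 428 CPM in METH samples (1 of 4 higher, median 1.55). Astrocyte markers summed to 2212 to 2966 CPM in saline and 3153 to 3393 CPM in METH samples, also without overlap (2 of 6 higher, median 0.26). Medium spiny markers had a median of -2.24 with 0 of 7 at p under 0.05, and DG Sal 3 held their high value. With the pyramidal sum as a covariate, 5 members had an unadjusted p under 0.05. They were Grik4 (log2 fold change 1.68), Neto1 (1.45), Grik3 (-1.27), Grm8 (-1.91) and Neto2, which stayed lower, all at edgeR FDR = 0.962. Gria1, Cacng8, Grin3a, Grm4 and Dlg1 did not, at 0.62, 0.74, -0.84, -0.91 and -0.39. With the granule sum there were 8, of which Gria1 and Neto2 were not part. Each covariate was added after the data were seen, and the part of the marker shift in these values was not tested beyond them. The share of all genes at p under 0.05 with these covariates is not given here. Whether the count of members fell more than that of other genes was not tested.

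Without DG Sal 1, Sal 2, METH 1 and METH 2, whose library numbers belong to the other treatment elsewhere, 2 samples remained in each group. Grik4 then had a log2 fold change of 1.58 (unadjusted p = 0.000832, edgeR FDR = 0.692), and Grin3a, Grik3, Grm8, Cacng8, Neto1 and Dlg1 also had p under 0.05 in the direction given above. Gria1, Grm4 (-1.13) and Neto2 (-0.49) did not, at edgeR FDR = 0.732, 0.733 and 0.757. Sequencing runs were inferred here from the library names in the count tables, which do not state them. Inferred run and treatment were mixed in the DG, where run A held Sal 3 with METH 1 and 2, run B the other saline samples, and run C METH 3 and 4. Runs B and C each held 1 treatment, so with run as a covariate the METH effect rests on run A, that is on METH 1 and 2 against Sal 3, the saline sample with high medium spiny markers. That fit had 10 members at p under 0.05, among them Grik4 (1.29, edgeR FDR = 0.38), Grm4 (-1.97), Grin3a (-1.68), Neto2 (-1.09) and Dlg1 (-0.87). Gria1 (1.05), Grik3 (-1.06), Grm8 (-0.85), Cacng8 (1.45) and Neto1 (0.68) were not among them. For this fit too the share of all genes at p under 0.05 is not given.

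The difference between the METH effects in the DG and the CA was tested directly in the 16 samples of both regions. No member passed an FDR under 0.01 by edgeR, and 0% of all genes did. At an unadjusted p under 0.05 there were 11 members (31.4%, against 15.4% of all genes), the 10 of the DG and Grin2a, 5 with the METH effect higher in the DG and 6 lower. Grik4 had the largest positive difference, 1.90 ± 0.443 on the log2 scale (unadjusted p = 0.000659, edgeR FDR = 0.126), with CA levels of 134, 55.5, 71.8 and 43.4 CPM in saline and 35.9, 55.6, 59.2 and 57.8 CPM after METH. The 134 CPM of CA Sal 1 was above every DG METH sample (at most 109.6 CPM). Of the 11 members, CA Sal 1 held the highest CA saline value of each with a positive difference and the lowest of each with a negative one. DESeq2 called Grik4 (adjusted p = 0.00618) and no other member, among 71 genes.

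The other positive differences were 1.47 for Grin2a, 1.36 for Cacng8, 1.26 for Gria1 and 1.16 for Neto1, and the negative ones ran from -0.75 for Neto2 to -2.01 for Grm8. Grm4 differed by -1.58 ± 0.457 (edgeR FDR = 0.154). With the pyramidal marker sum as a covariate 3 members had p under 0.05 (Grik4 at 1.72, Neto1 at 1.36 and Neto2 at -0.96), and with the granule sum 4 (Grik4, Neto1, Grin3a and Grm4). Shares of all genes with these covariates are not given here. Grik4 and Neto1 had p under 0.05 in all 26 alternatives run, with ranges of 1.49 to 2.11 and 0.90 to 1.40.

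A test for any difference of the METH effect among the 4 regions called 0 members and 0% of all genes. Unadjusted, 8 members had p under 0.05 (22.9%, against 7.74% of all genes): Grin1, Grin2a, Grin3a, Grik3, Grik4, Grm4, Grm8 and Cacng8, with Grik4 lowest (edgeR FDR = 0.283). DESeq2 gave 0 calls on members and 8 members at p under 0.05, and its share of all genes is not given here.

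In the NAc, Grik3 was the member with p under 0.05. Saline samples had 87.1, 78.8, 83 and 65.5 CPM and METH samples 50.9, 59.4, 59.2 and 50.3 CPM, without overlap (-0.49 ± 0.108, unadjusted p = 0.00165, edgeR FDR = 0.999). Astrocyte marker sums separated the same samples, at 2475 to 2823 CPM in saline and 2938 to 4594 CPM after METH, with 2 of 6 markers at p under 0.05 and higher (Gfap at 1.58 and Slc1a3 at 0.38 on the log2 scale, edgeR FDR = 0.999), and their part in the Grik3 value was not tested. Of the 35 members 24 were below 0 and 10 above. NAc METH 3, the library with the lowest medium spiny markers, held the lowest NAc METH value of Gria1 (151 CPM, against 258 to 325 CPM in the other 3), Grin2b (159 CPM) and Neto1 (55.6 CPM) but not of Grik3.

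The CA had Grin2a and Grin2d. Grin2a had 561, 275, 413 and 393 CPM in saline and 334, 267, 290 and 300.4 CPM after METH (-0.46 ± 0.187, edgeR FDR = 0.687), and Grin2d, an NMDA subunit with slow-closing channels, 14.7, 16.3, 20.8 and 17.9 CPM against 15.9, 30.7, 22.4 and 28 CPM (0.48 ± 0.203, FDR = 0.688). Both groups overlapped for both genes. Granule markers summed to 50.8 to 417 CPM in saline and 70.4 to 207 CPM in METH CA samples, and 2 of 4 tested were lower at an unadjusted p under 0.05. With that sum as a covariate 1 member had p under 0.05, and the share of all genes in that fit is not given here.

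The SVZ had Grin1, Grin2b, Dlg3 and Grik4. Grin1, the subunit every NMDA receptor contains (chr3:2506896-2534663, minus strand of rn6), had 443, 469, 532 and 457 CPM in saline and 359, 386, 344 and 350.5 CPM in METH samples, without overlap. The log2 fold change was -0.39 ± 0.104 (unadjusted p = 0.00558, edgeR FDR = 0.979), and it had p under 0.05 in all 19 alternatives, between -0.45 and -0.34. Grin2b had 390, 404, 436 and 450.1 CPM against 358, 384, 263 and 312 CPM, also without overlap (-0.34 ± 0.138, FDR = 0.979).

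Dlg3, the scaffold with a large part in early synapses, had 167, 230.1, 233 and 221 CPM in saline and 193, 150.4, 161 and 144 CPM after METH (-0.38 ± 0.152, edgeR FDR = 0.979). Grik4 was higher, as in the DG, at 35.7, 22.3, 21.6 and 18.7 CPM against 32.8, 55.9, 25.2 and 47 CPM (0.72 ± 0.283, FDR = 0.979), and its highest METH values were in METH 2 and METH 4. The libraries SVZ Sal 1, METH 2 and METH 4, with high thalamic and oligodendrocyte markers (18369.9, 25398 and 26899.8 CPM summed oligodendrocyte markers, against 3733 to 9148 CPM in the other SVZ samples), set the spread of many members. Gria1 had 31.6, 28 and 89.6 CPM in them and 185 to 319.6 CPM in the other 5 SVZ samples. Without these 3 libraries 16 members had an unadjusted p under 0.05 in the SVZ (6.73% of all genes), and without SVZ Sal 1 alone 19 (16.4% of all genes), with a lowest edgeR FDR of 0.623 and 0.27.

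Subunit shares within a family were added after the data were seen, as the percentage of the family's summed CPM per kb. The genes were chosen with their levels in these samples known, and the shares of those at p under 0.05 in the DG restate in part the fold changes above. They ask whether the balance of subunits differed, which a shift common to the family leaves unchanged. With 4 samples against 4 the smallest exact permutation p is 0.0286, and the 32 shares tested were adjusted together by Benjamini-Hochberg. In the DG, Gria1 made up 30.7 ± 8.85% of the 4 AMPA subunits in saline and 46.1 ± 1.25% after METH (SD, n = 4), Cacng8 28.4 ± 9.65% and 52.1 ± 4.04% of the 6 TARPs, and Neto1 57.7 ± 5.79% and 78.8 ± 8.32% of Neto1 and Neto2. In each the METH samples lay above all saline samples (exact two-sided p = 0.0286, adjusted p = 0.305).

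The Gria1 share ran from 18.8% to 38.5% in DG saline and from 44.5% to 47.3% in DG METH samples, and in the CA it did not pass the same test (exact p = 0.914). Grik4 made up 17 ± 3.36% of Grik4 and Grik5 in DG saline and 30.9 ± 8.36% after METH (exact p = 0.0571, adjusted p = 0.305). Gria4 had the opposite sign, 8.05 ± 2.07% against 4.42 ± 0.704% (exact p = 0.0571). Shares of a family add to a fixed total, so a higher Gria1 share lowers the others and the Gria4 value is not a separate result. None of the 32 adjusted p-values was under 0.05. The pyramidal marker sums given above separate the same DG samples.

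**Figure D5:**
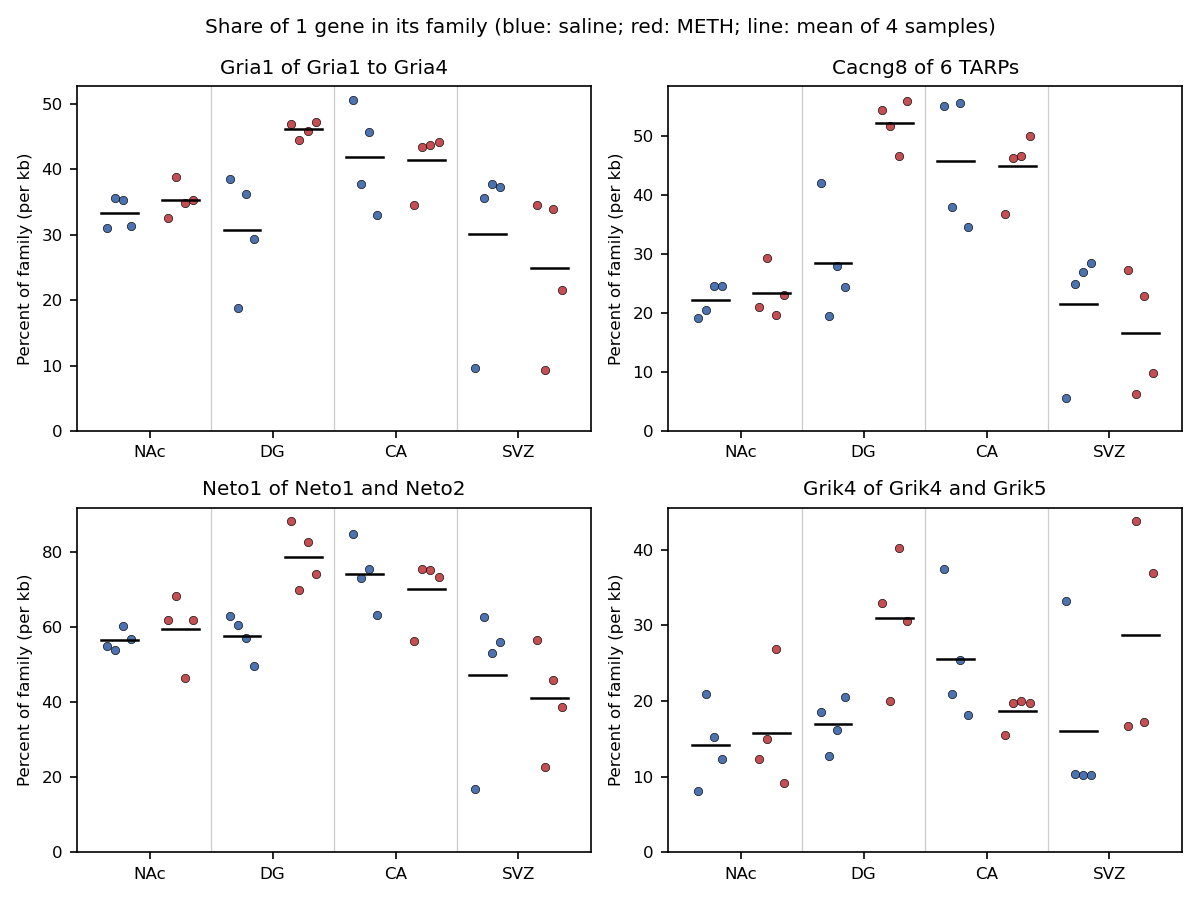
Share of 1 gene in the summed CPM per kb of its family (y axis, percent) in each sample of the 4 regions (saline in blue, METH in red, line at the mean of 4 samples). DG METH samples lie above DG saline samples for Gria1, Cacng8 and Neto1, and in the SVZ the libraries Sal 1, METH 2 and METH 4 have Gria1 shares of 9.64%, 9.27% and 21.6%.

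Other genes of glutamate signalling, 38 of a list of 41 (Shisa9, Gsg1l and Lrrtm1 were not analysed here), were tested in the same fits. None was called by edgeR in any METH comparison. At an unadjusted p under 0.05, 7 were higher and 3 lower in the DG, 3 and 2 in the CA, 1 and 2 in the NAc, and 0 and 2 in the SVZ, where 12.8%, 7.16%, 3.39% and 2.58% of all genes were at p under 0.05. The DG genes with the smallest p were the postsynaptic adaptor Homer3 (1.74 ± 0.229, edgeR FDR = 0.114) and the AMPA receptor partner Shisa6 (2.13 ± 0.463, FDR = 0.172), both without overlap, beside Nptx1 (1.26), which clusters AMPA receptors, the AMPA receptor partner Cnih2 (0.98) and the kinase subunit Camk2b (0.79). Lower were the delta receptor ligands Cbln1 (-2.15) and Cbln2 (-1.67) and the AMPA receptor-binding Pick1 (-0.27). Nptx1 and Camk2b also passed an unadjusted p of 0.05 in the CA with the opposite sign, -0.75 and -0.51 (edgeR FDR = 0.669 and 0.688). Between saline regions 1 gene of the list was called, the metabotropic receptor Grm6, higher in CA than in SVZ by 3.04 ± 0.428 on the log2 scale (FDR = 0.00633), and at FDR under 0.05 there were 10 in CA against SVZ (9 higher, where 13.2% of all genes passed) and 8 in CA against NAc (7 higher, where 5.1% passed).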

How the data were processed

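RNA-seq was measured in 32 samples, with 4 saline and 4 METH samples from each of 4 brain regions. The authors deposited raw gene counts for each sample, made by trimming (cutadapt 2.7), alignment to rn6 (STAR 2.5.2b) and counting on Ensembl release 95 (featureCounts 1.6.3, no strand, minimum mapping quality 10). Total counts were 11094002 to 21869773 per sample (median 14533166.5), and rows all named genes. Samples were grouped by their labels. Counts were filtered with filterByExpr, normalized by upper quartile and tested with edgeR 4.0.16 (glmQLFit and glmQLFTest, Benjamini-Hochberg FDR over all genes tested) in R 4.3.3, per region for METH, over 16 saline or 16 METH samples for regions, and over 16 or 32 samples for differences of effects. Calls needed FDR under 0.01 with 1.5-fold (METH), 2-fold (regions) or no fold limit (differences of effects). CPM use upper-quartile library sizes over 32 samples. Replicates differed by more than sampling noise (chi-square per gene 16.42 to 191.43 in 48 pairs). The script was tested on simulated data. Same-numbered saline NAc and CA samples deviated together (correlations 0.13, 0.25, 0.21 and 0.11) and shared library numbers. They were taken as pairs in an alternative fit of these groups alone, while the main fits used no pairs. No other of the 16 pairs of groups tested (same region or same treatment) deviated together in all 4. METH NAc and CA samples also shared library numbers, with 2 of 4 correlations over 0.1, and were fitted alone with and without pairs in the same way.

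The members, lists and tests were chosen with earlier results of these data known. Named genes were members called in a region contrast in both saline and METH samples and members at an unadjusted p under 0.05 in a METH comparison, and other members named are said to be chosen after their values were seen. Alternatives were DESeq2 1.42.0, TMM, no filter, a replicate block, and 1, 2 or 4 RUVr factors (unwanted variation from residuals, recoded here). Further alternatives were other thresholds, sequencing run (inferred from library names) or marker sums as covariates, and leaving out libraries. Figures used matplotlib 3.10.9, and exact tests scipy 1.17.1. Promoters came from RefSeq GRCr8, and gene positions are rn6. Whether the crossed DG library numbers mark swapped samples was not tested.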

Additional observations from a re-analysis of the deposited data

Results flagged for a closer look

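Within groups of 4, 31 of 280 member levels had their highest or lowest sample farther from the rest than Dixon's 95% limit, where chance flags about 1 in 20 groups. Of the 31, 11 lay in NAc METH 3 and 8 in SVZ Sal 1.

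NAc METH 3, which had the lowest medium spiny marker sum of the NAc (151 CPM), held 11. Its levels were low for Gria2 (354 CPM, others 722 to 779 CPM), Grin2b (159 CPM, others 407 to 454 CPM), Cacng4 (107.5 CPM), Cacng8 (40.8 CPM), Neto1 (55.6 CPM), Dlg1 (109.8 CPM), Dlg3 (114.6 CPM) and Dlg4 (503 CPM, others 745 to 764.5 CPM). They were high for Grin2d (71.5 CPM, others 13.1 to 21.3 CPM), Grm2 (21.6 CPM) and Cacng2 (66.7 CPM). Without it the METH comparison in the NAc had 3 members at an unadjusted p under 0.05 in place of 1, and the share of all genes in that fit is not given here.

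SVZ Sal 1, which had the highest thalamic marker sum of all samples (1574 CPM), held 8. It was low for Gria1 (31.6 CPM, others 282 to 319.6 CPM), Gria2 (191 CPM), Cacng8 (15.1 CPM), Neto1 (21 CPM) and Dlg2 (98.8 CPM), and high for Grin2d (34.7 CPM), Cacng2 (125.5 CPM, others 28.7 to 34.5 CPM) and Cacng7 (244 CPM). SVZ METH 2 and METH 4 had similar values for Gria1, Cacng2 and Neto1 (28 and 89.6, 102 and 88.1, and 22.9 and 50.9 CPM). The part of tissue content in these values was not tested.

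In the CA, Sal 3 was high for Grin2b (689 CPM) and Grin3b (12.1 CPM), METH 1 was low for Grik4 (35.9 CPM) and high for Neto2 (45.4 CPM), METH 3 was low for Gria4 (99.2 CPM) and Sal 4 was low for Grid1 (38.5 CPM). In the DG, Sal 1 was high for Grik4 (44.6 CPM, others 30.1 to 32.5 CPM), Sal 3 was high for Cacng5 (34.1 CPM) beside its high medium spiny markers, and METH 3 was low for Dlg3 (165 CPM). SVZ Sal 3 was low for Grm2 (2.66 CPM), SVZ METH 3 high for Grin3a (23 CPM) and NAc Sal 2 low for Dlg3 (158 CPM).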

How the results depend on the processing

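Log2 fold changes were followed under alternatives for members at an unadjusted p under 0.05 in the METH comparisons and for members at FDR under 0.05 in saline CA against NAc or SVZ. None of these changed sign, 893 values kept their side of an unadjusted p of 0.05 and 81 lost it. Members in saline DG against CA were not followed. Counts of members past a threshold moved more. Counts over all genes moved as well: 126 genes were called in saline CA against SVZ, and 0 to 387 with 1 replicate left out. For most settings below the share of all genes is not given, so the counts describe the members alone and show no excess over other genes. Members called went from 0 to 3 with DESeq2 in the DG, from 0 to 1 in the CA with 4 RUVr factors (Grin3a), from 0 to 7 with 4 RUVr factors and 1 with DESeq2 for DG minus CA, and from 0 to 3 and 11 with 2 and 4 RUVr factors for the difference among regions. For saline CA against NAc (0) they were 5 at FDR under 0.05 with no fold limit, 2, 5 and 8 with 1, 2 and 4 RUVr factors, 3 without DG Sal 3 and SVZ Sal 1, 1 in a fit of CA and NAc alone, 2 in METH samples without 3 libraries, 2 in a fit of the CA and NAc METH samples alone and 6 with DESeq2. For saline CA against SVZ (1) they were 8 at FDR under 0.05 with no fold limit, 3 in METH samples, 2 in METH samples without 3 libraries, 4, 6 and 7 with RUVr, 6 without DG Sal 3 and SVZ Sal 1 and 6 with DESeq2. For DG against NAc (0) they were 3 and 8 in METH samples with and without NAc METH 3, SVZ METH 2 and METH 4, 2 with 4 RUVr factors and 2 without DG Sal 3 and SVZ Sal 1, and for DG against SVZ (0) 3 and 4, 1 and 4, and 1 with DESeq2.

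Counts at p under 0.05 before adjustment were, for the NAc (1), 2 without a filter, 8, 17 and 22 with 1, 2 and 4 RUVr factors, 0 with all 32 samples in 1 fit, 4 with the medium spiny sum and 2 with DESeq2. In the DG (10) they were 18 and 20 with 2 and 4 RUVr factors and 5 with the pyramidal sum. In the CA (2) they were 4 and 10 with 2 and 4 RUVr factors, 0 with all samples in 1 fit and 1 with the granule sum. In the SVZ (4) they were 19, 21 and 24 with RUVr, 2 with same-numbered METH libraries summed and 16 without SVZ Sal 1, METH 2 and METH 4. DG minus CA (11) gave 18 with 4 RUVr factors, 4 with the granule and 3 with the pyramidal sum, and the difference among regions (8) 15, 18 and 26 with RUVr.

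Leaving out 1 replicate gave 0 to 2 calls for saline CA against NAc, 0 to 4 for CA against SVZ and 0 to 0 elsewhere. Counts at p under 0.05 ran from 1 to 5 in the NAc (5 without Sal 4), 10 to 13 in the DG, 0 to 4 in the CA (0 without Sal 1 or any of METH 2 to 4), 2 to 19 in the SVZ (2 without Sal 2, 3, 4 or METH 4, 19 without Sal 1), 9 to 13 for DG minus CA and 5 to 15 among regions (5 without DG Sal 4, DG METH 1 or DG METH 4, 15 without SVZ Sal 1).

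With the replicate block the CA count was 4 in place of 2. The call on Grm4 in CA against SVZ was lost (0 members), though library numbers do not link those samples. In the fit of saline CA and NAc alone the block lost Grm4 (edgeR FDR 0.00572 to 0.0262), in that of METH CA and NAc, whose correlations did not all pass, it lost Cacng5 and Cacng8 (0 members called), and it changed no other call on a member. In the SVZ, Grin2b, Grik4 and Dlg3 had an unadjusted p over 0.05 with the block. The causes of these moves were not tested. RUVr factors are estimated from residuals of the same samples, and the number the authors used was not given in the sources used here. The smallest count of a member in a sample was 16 reads (Grm2), and replicates differed by more than counting error.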
